A study of Rattus norvegicus with 24 samples.

Results

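The 4 genes described here belong to the growth hormone axis of the liver and were followed across 24 rat livers: Ghr (ENSRNOG00000015654), Igf1 (ENSRNOG00000004517), Igfbp2 (ENSRNOG00000016957) and Bcl6 (ENSRNOG00000001843). These 4 Ensembl gene IDs were picked from the 18056 IDs of the deposited count tables as genes of this axis. The files hold no gene names, so the symbols rest on the pairing of ID and name that came with the choice. All 4 passed the filter on low counts in every fit. The animals formed 4 groups of 6, taken at about postnatal day 48. One pair of groups, air-dam males and air-dam females, came from mothers that breathed filtered air. The other pair, ozone-dam males and ozone-dam females, came from mothers that breathed 0.8 ppm ozone; both exposures lasted 4 hours on each of gestation days 5 and 6, with 12 dams each. All 24 offspring had themselves been exposed to ozone weekly in postnatal weeks 5 to 7 (0.4 ppm in week 5, 0.8 ppm in weeks 6 and 7), so the groups differ in sex and in the exposure of the dam. The labels give sex under a tag named for genotype, and give neither strain, dam nor litter. Littermates may be among the 24, in which case the p-values, which rest on the spread between animals, could be too small.

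Pituitary growth hormone acts on hepatocytes through its receptor, the product of Ghr, which signals through the kinase JAK2 to the transcription factor STAT5B. In rats the hormone is released in pulses in males and in a more even flow in females, and this pattern sets many of the differences in transcript levels between male and female liver. Igf1 encodes the insulin-like growth factor that the liver secretes into blood in response to the hormone. Igfbp2 encodes a carrier protein that binds insulin-like growth factors, and its liver transcript is known to rise when growth hormone action or nutrition falls. Bcl6 encodes a transcriptional repressor that can occupy STAT5 sites and is known for its sex-dependent level in rodent liver.

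The promoter windows of Ghr and Igf1, which encode the receptor and the secreted growth factor, are given here as sequences. Both come from RefSeq (build GRCr8), cover 250 bases before to 50 after an annotated start, and are printed 5′ to 3′ on the gene's strand with each CpG dinucleotide in capitals. The Ghr window is chr2:54432026-54432325 on the minus strand, and the Igf1 window is chr7:24172282-24172581 on the plus strand.
Ghr: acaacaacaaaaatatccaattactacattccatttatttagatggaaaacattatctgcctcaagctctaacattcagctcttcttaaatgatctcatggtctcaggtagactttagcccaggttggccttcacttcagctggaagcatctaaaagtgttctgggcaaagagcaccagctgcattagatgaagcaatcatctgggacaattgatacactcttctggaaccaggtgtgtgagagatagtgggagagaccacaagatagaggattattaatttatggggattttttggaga
Igf1: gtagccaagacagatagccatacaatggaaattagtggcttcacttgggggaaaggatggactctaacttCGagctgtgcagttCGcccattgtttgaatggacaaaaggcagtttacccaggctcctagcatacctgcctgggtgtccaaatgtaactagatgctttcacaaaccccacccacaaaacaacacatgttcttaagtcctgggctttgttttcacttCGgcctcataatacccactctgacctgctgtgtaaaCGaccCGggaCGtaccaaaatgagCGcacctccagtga
The Ghr window held 0 CpG dinucleotides and had a GC content of 40%, and the Igf1 window held 7 and had 48.3%. The windows of Igfbp2 (20 CpG, GC content 66.7%) and Bcl6 (40 CpG, 72.3%) were richer, against medians of 7 CpG and 51.7% over 33469 windows of the same length. The motif TTCNNNGAA, the spacing that STAT5 binds, which reads the same on both strands, was found in 0 of the 4 windows and in 8.87% of all 33469. That says only that these letters are not in these windows. Each window covers 1 annotated start, and the counts, which are per gene, do not tell starts or splice forms apart, including the form of Ghr that encodes the circulating growth hormone binding protein.

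Values are CPM, counts scaled to a common library total after normalisation. Library totals ran from 8462290 to 14564700 estimated counts apart from 1 library of 36232100, female ozone replicate 6. A level of 3 counts corresponded to 0.0859 to 0.349 CPM, counting error only, and the lowest member count was 7 (Igfbp2 in 1 male). Library names come in 2 forms, treated as 2 library sets; each air-dam group had 3 libraries in each set, and each ozone-dam group had 2 in set 1 and 4 in set 2. The set was a term in every fit. Fold changes and adjusted p-values are from edgeR's quasi-likelihood test with Benjamini-Hochberg adjustment over all genes tested, and a gene was called at an adjusted p under 0.05. In whole-liver RNA, fewer cells of a type and less RNA per cell cannot be told apart, and the labelled tissue and sex were not checked against marker genes, since the files do not pair IDs with names.

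Ghr was the single member called for the exposure of the dam. It was higher in ozone-dam males than in air-dam males, and the maternal difference itself differed between males and females. Air-dam males had the lowest levels of the 4 groups, at 251, 308 and 367 CPM (lowest, median and highest). In ozone-dam males the same values were 417, 492 and 583 CPM. All 6 ozone-dam males lay above all 6 air-dam males; such separation in either direction was seen in 5.24% of the genes. The mean rose from 314 ± 41.0 to 494 ± 69.5 CPM (SD, n = 6 each), a fitted rise of 1.60-fold with a 95% interval of 1.35 to 1.89 (log2 fold change 0.68 ± 0.11 SE, edgeR adjusted p = 0.00168). It was the only one of the 4 members called in males, where 21.3% of the 12541 genes tested were called, 10.3% higher and 11% lower. By p-value, 1.35% of the genes tested ranked ahead of it.

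In females the Ghr values ran the other way and did not pass the test. Air-dam females had 501, 660 and 1095 CPM (lowest, median, highest), and ozone-dam females had 449, 524 and 630 CPM. The ranges overlapped, and the highest value, female air replicate 3, stood well above the next at 725 CPM. Means were 712 ± 202 and 520 ± 65.4 CPM (SD, n = 6 each), with a log2 fold change of -0.46 ± 0.16 SE, a 95% interval of -0.79 to -0.12 and an edgeR adjusted p of 0.188. Without female air replicate 3 the log2 fold change was -0.29 (adjusted p = 0.410). It was -0.17 in library set 1 alone (adjusted p = 0.988) and -0.67 in set 2 alone (adjusted p = 0.199). In females edgeR called 0 of the 4 members, where 0.271% of 12538 genes were called, 0.239% higher and 0.0319% lower. The ranges of the groups overlapped for all 4 members, and were apart for 1.54% of genes. Ghr alone among the members had an unadjusted p under 0.05, as had 2001 of the 12538 genes, and DESeq2 called 0 of the 4 members and 336 of 18003 genes.

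The maternal difference of Ghr in males exceeded that in females by 1.11 ± 0.21 on the log2 scale (SE, 24 libraries, edgeR adjusted p = 0.000909; 95% interval 0.68 to 1.53). This test of the interaction called 1 of the 4 members, against 23.3% of 12854 genes, 12.1% with the more positive and 11.2% with the more negative difference in males. Within library set 1 alone the value was 0.98 (adjusted p = 0.0772), and within set 2 alone it was 1.27 (adjusted p = 0.0225). For males by themselves the maternal difference was 0.81 in set 1 (3 against 2 animals, adjusted p = 0.0293) and 0.60 in set 2 (3 against 4, adjusted p = 0.116), so the direction was the same in both sets and the call was lost in set 2.

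Read across sex, Ghr was lower in males than in females in air-dam offspring and did not pass the test in ozone-dam offspring. In air-dam offspring males had 0.441 times the level of females (95% interval 0.358 to 0.545; log2 -1.18 ± 0.15 SE, edgeR adjusted p = 1.07e-06), with no overlap between the 2 groups. In that comparison 51.5% of 12854 genes were called and 26.7% had ranges that did not overlap. In ozone-dam offspring the ratio was 0.951 (0.773 to 1.17; adjusted p = 0.853), with overlapping ranges. There 5.76% of 12854 genes were called and 3.8% had ranges that did not overlap. From the lowest mean to the highest, the groups ran from air-dam males to ozone-dam males, ozone-dam females and air-dam females. Only the first of these 3 steps passed a test. These contrasts use the same 24 libraries as the maternal comparisons, so they restate the same values rather than add to them.

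**Figure D1:**
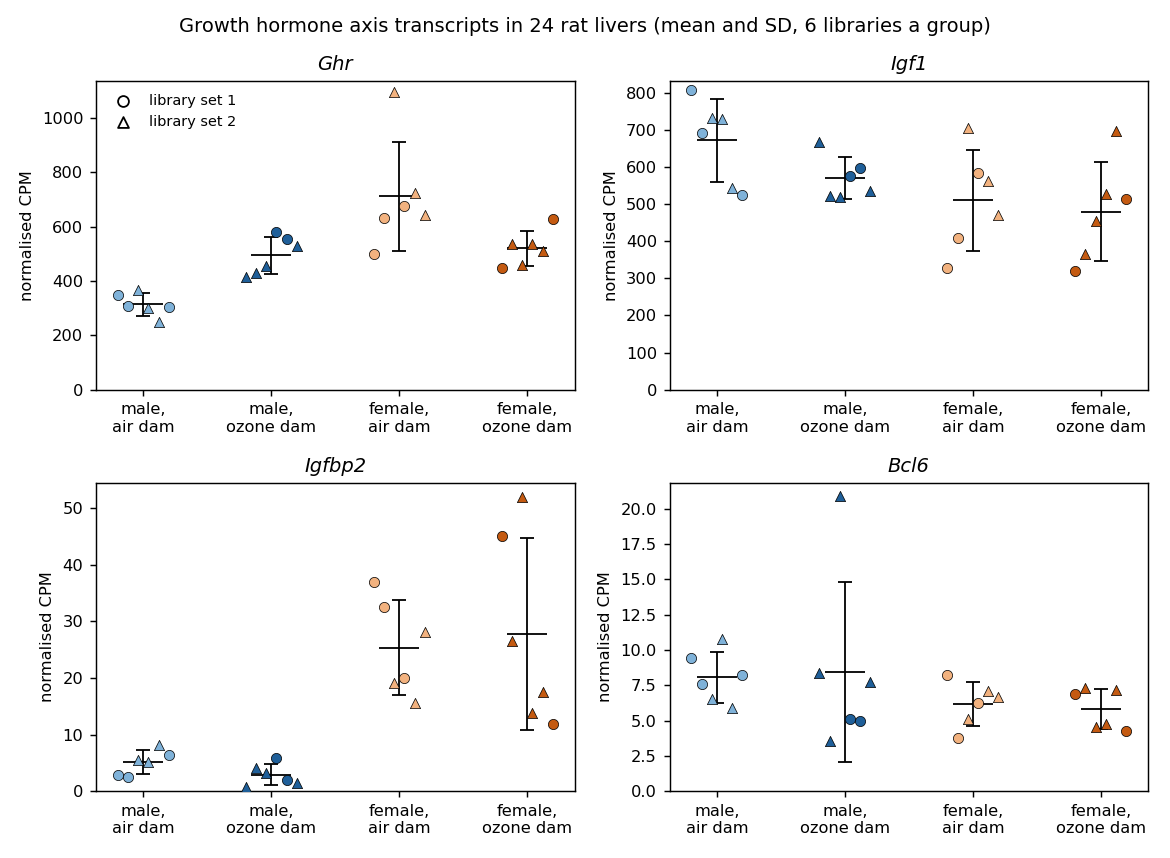
Normalised CPM of Ghr, Igf1, Igfbp2 and Bcl6 in each of 24 libraries, by group, with circles for library set 1, triangles for library set 2, and the mean and SD of 6 libraries in black. Ghr in ozone-dam males (417 to 583 CPM) lies above all air-dam males (251 to 367 CPM), and Igfbp2 separates the sexes in both groups of dams.

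Igf1, the secreted growth factor, was not called for the dam's exposure in either sex. Air-dam males had 523, 710 and 807 CPM (lowest, median, highest), and ozone-dam males had 519, 556 and 666 CPM. The ranges overlapped. Means were 671 ± 113 and 569 ± 56.5 CPM (SD, n = 6 each), with a log2 fold change of -0.23 ± 0.13 SE, a 95% interval of -0.50 to 0.04 and an edgeR adjusted p of 0.205. A fold between 0.707 and 1.03 lies within the interval. In females the levels were 328, 517 and 706 CPM in air-dam offspring and 319, 484 and 697 CPM in ozone-dam offspring, nearly the same span. Their means were 510 ± 135 and 479 ± 134 CPM, with a log2 fold change of -0.13 (95% interval -0.53 to 0.27, edgeR adjusted p = 0.775). The interaction was -0.15 ± 0.24 SE (adjusted p = 0.687).

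Between the sexes Igf1 was higher in males in air-dam offspring, by 1.33-fold (95% interval 1.04 to 1.69; log2 0.41 ± 0.17 SE, edgeR adjusted p = 0.0466), with overlapping ranges. This call lay at the threshold. It was lost under all 6 alternative settings tried and without any of 11 of the 24 libraries, with log2 values from 0.20 to 0.63 over all of these. In ozone-dam offspring the log2 sex difference was 0.26 ± 0.17 SE (95% interval -0.09 to 0.60, adjusted p = 0.464). In air-dam offspring 3 of the 4 members were called between the sexes (Igf1 higher in males, Ghr and Igfbp2 lower), as were 51.5% of 12854 genes, 25.5% higher and 26% lower in males. In ozone-dam offspring 1 of 4 was called (Igfbp2, lower in males), as were 5.76% of genes, 2.96% higher and 2.81% lower.

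**Figure D2:**
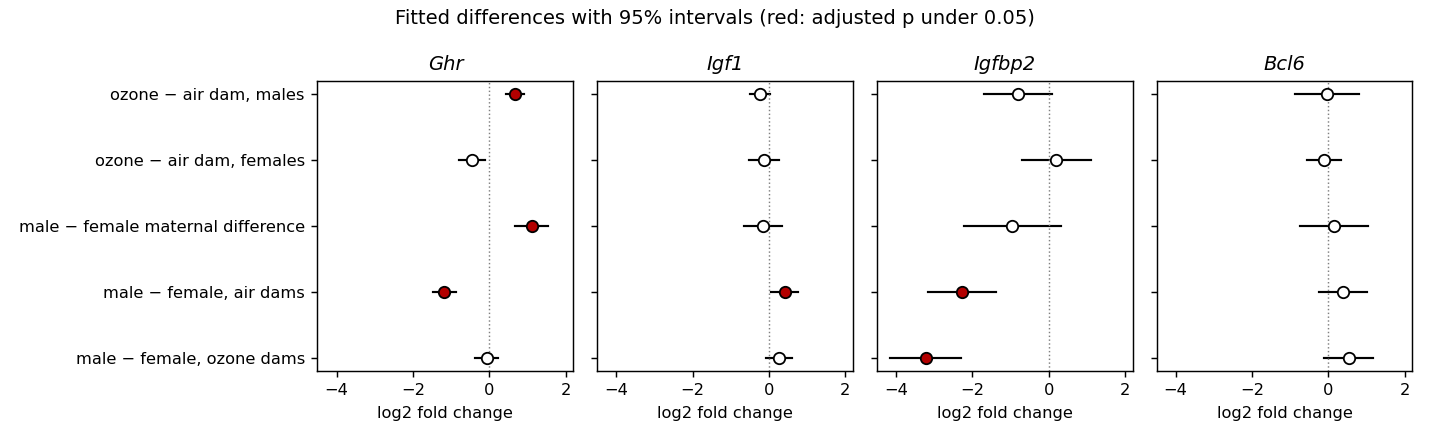
Fitted log2 fold changes with 95% intervals for each member in 5 comparisons; red points passed the edgeR test at an adjusted p under 0.05 and white points did not. Ghr is the single member with a called maternal difference (0.68 in males) and a called interaction (1.11), and Igfbp2 has the largest differences between the sexes.

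In males the Ghr mean was higher and the Igf1 mean, whose difference was not called, lower in ozone-dam offspring, so their balance within a library was also set out. The log2 ratio of Ghr to Igf1 CPM, which is not corrected for transcript length and is comparable only between libraries, was -1.09 ± 0.18 in air-dam males and -0.21 ± 0.25 in ozone-dam males (SD, n = 6 each). It ranged from -1.28 to -0.78 in the former and from -0.68 to 0.02 in the latter. These ranges do not overlap, which restates the separation already seen in Ghr alone and is no further result. In females it was 0.48 ± 0.17 in air-dam offspring and 0.15 ± 0.37 in ozone-dam offspring, with ranges of 0.21 to 0.63 and -0.44 to 0.55. The ranges of the female groups overlapped. No test was made of this ratio, and it was not set against ratios of other genes.

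**Figure D3:**
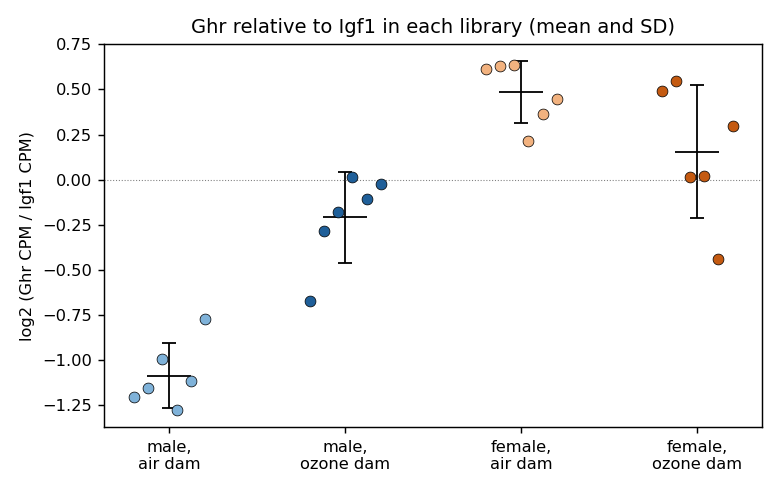
Log2 ratio of Ghr CPM to Igf1 CPM in each library by group, with the mean and SD of 6 libraries. Air-dam males (-1.28 to -0.78) lie below every other library, and ozone-dam males (-0.68 to 0.02) overlap the ozone-dam females.

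Igfbp2, the binding protein, separated the sexes in both groups of dams and was scarce in males. Air-dam males had 2.62, 5.41 and 8.23 CPM (lowest, median, highest) and air-dam females 15.7, 24.01 and 36.9 CPM. In ozone-dam offspring the values were 0.815, 2.68 and 5.93 CPM in males and 11.9, 22.1 and 51.9 CPM in females. Every female value was above every male value in both groups of dams. Ranges apart in either direction were seen in 26.7% of genes in air-dam offspring and 3.8% in ozone-dam offspring. Males had 0.207 times the female level in air-dam offspring (95% interval 0.113 to 0.381; log2 -2.27 ± 0.42 SE, edgeR adjusted p = 0.000162). In ozone-dam offspring they had 0.107 times that level (0.0561 to 0.204; log2 -3.22 ± 0.45 SE, adjusted p = 5.92e-05), the 68th largest log2 difference of 12854 genes in that comparison. In library set 1 alone, with 2 animals a sex, this difference in ozone-dam offspring was -2.79 (adjusted p = 0.330), and in set 2 alone it was -3.47 (adjusted p = 0.0017).

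The maternal difference of Igfbp2 did not pass the test in either sex. In males the means were 5.16 ± 2.13 CPM in air-dam offspring and 2.94 ± 1.87 CPM in ozone-dam offspring (SD, n = 6 each; log2 -0.80 ± 0.41 SE, 95% interval -1.69 to 0.10, edgeR adjusted p = 0.190). Those levels came from 28 to 93 and from 7 to 65 counts a library. The spread between animals, with coefficients of variation of 41.2% and 63.6%, was wider than counting alone gives, 14.5% and 22.5%. Without male ozone replicate 4, the highest of its group at 5.93 CPM, the log2 fold change was -1.24 and passed (adjusted p = 0.0394), the single setting of those tried that gave a call. It was 0.02 in library set 1 alone (adjusted p = 0.986) and -1.35 in set 2 alone (adjusted p = 0.136). In females the means were 25.4 ± 8.39 and 27.8 ± 16.9 CPM (log2 0.20 ± 0.41 SE, 95% interval -0.70 to 1.10, adjusted p = 0.844). The interaction was -0.95 ± 0.61 SE (adjusted p = 0.269), so a difference between the sexes in the maternal effect on Igfbp2 was not shown.

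Bcl6, the repressor, was called in none of the 5 edgeR comparisons, and its unadjusted p was above 0.05 in each. It was read at low depth, from 36 to 276 counts a library. Air-dam males had 5.93, 7.91 and 10.8 CPM (lowest, median, highest), and ozone-dam males had 3.56, 6.42 and 20.9 CPM. The value of 20.9 CPM, in male ozone replicate 3, stood apart from the next highest of its group at 8.38 CPM. Means were 8.09 ± 1.81 and 8.44 ± 6.37 CPM (SD, n = 6 each; log2 -0.03 ± 0.39 SE, 95% interval -0.88 to 0.81, adjusted p = 0.962). That interval runs from 0.544 to 1.75 times the air-dam level, so these libraries set only wide limits on Bcl6 in males. Without male ozone replicate 3 the log2 fold change was -0.46 ± 0.23 SE (adjusted p = 0.182). It was -0.75 ± 0.23 SE in library set 1 alone (adjusted p = 0.0792) and 0.42 ± 0.53 SE in set 2 alone (adjusted p = 0.706).

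In females Bcl6 lay at 3.803, 6.48 and 8.25 CPM in air-dam offspring and at 4.26, 5.85 and 7.29 CPM in ozone-dam offspring, with overlapping ranges. The means were 6.20 ± 1.56 and 5.84 ± 1.44 CPM (SD, n = 6 each; log2 -0.10 ± 0.21 SE, 95% interval -0.55 to 0.34, edgeR adjusted p = 0.838). The mean was higher in males than in females in both groups of dams, by 0.38 ± 0.31 SE on the log2 scale in air-dam offspring (adjusted p = 0.310) and by 0.53 ± 0.31 SE in ozone-dam offspring (adjusted p = 0.382). Neither difference passed the test. The difference in ozone-dam offspring was 0.04 without male ozone replicate 3.

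How the 4 transcripts varied from animal to animal inside the groups was examined after the group means were removed. For this, log2 CPM minus the mean of the group was compared over 24 libraries for all 6 pairs of members, with permutation of animals within groups (100000 resamples, two-sided) and Benjamini-Hochberg adjustment over the 6 pairs. Igf1 and Igfbp2 varied inversely. Their Pearson r was -0.60 (permutation p = 0.00129, adjusted 0.00774) and their Spearman rho -0.67 (permutation p = 0.00071, adjusted 0.00426). The r was -0.57 in the 12 males and -0.69 in the 12 females. Within a library set, the mean of each group in that set was removed instead. There r was -0.80 in set 1 (10 libraries) and -0.58 in set 2 (14 libraries). Without the libraries farthest from the median of Igf1, female air replicate 1 and female ozone replicate 1, r was -0.54 (permutation p = 0.00692). The libraries farthest in Igfbp2 were not left out for this pair. Among them, male ozone replicate 1 had an Igfbp2 deviation of -1.42, from 7 counts, beside 0.23 for Igf1. Of 12853 other genes, 72 had a more negative r with Igf1 than Igfbp2 had, and 23 had a more negative r with Igfbp2 than Igf1 had.

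Ghr and Igf1 varied together, although less firmly. Pearson r was 0.61 (permutation p = 0.00425, adjusted 0.0128) and Spearman rho 0.52 (permutation p = 0.013, adjusted 0.039). The r was 0.40 in males and 0.69 in females. Within a library set, with the group means of that set removed, it was 0.89 in set 1 (10 libraries) and 0.44 in set 2 (14 libraries). Without the libraries farthest from the median of Ghr, female air replicates 1 and 3, r was 0.39 (permutation p = 0.0865), so the relation rests in part on those animals, which had the lowest and the highest values of both genes in their group. Of 12853 other genes, 12780 had a lower r with Igf1 than Ghr had. For r with Ghr, 12582 lay below Igf1. Over the 4 groups together, Ghr and Igf1 tended to deviate from the group mean in the same direction. Between the male groups the Ghr mean was higher and the Igf1 mean, not called, lower in ozone-dam offspring. The relation was not computed within single groups. Among ozone-dam males, replicate 1 had the lowest Ghr and the highest Igf1 (deviations of -0.23 and 0.23), so a shared direction in that group by itself is not shown. The other 4 pairs, all 3 with Bcl6 among them, did not pass the adjustment (r between -0.33 and -0.07).

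**Figure D4:**
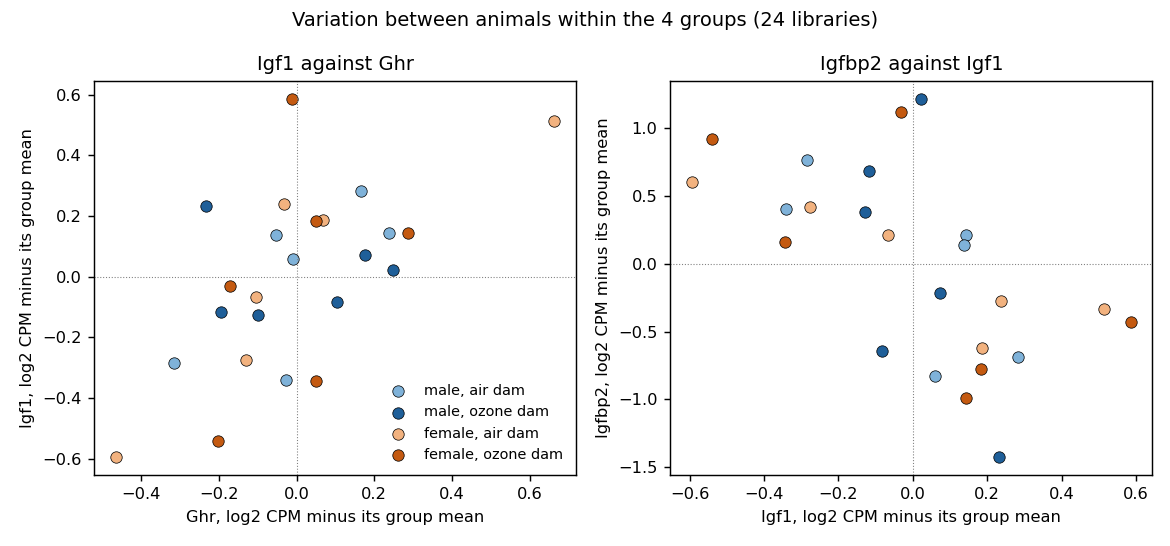
Deviation of each library from the mean of its group, in log2 CPM, for Igf1 against Ghr (left) and Igfbp2 against Igf1 (right); each point is 1 of 24 animals, coloured by group. Igfbp2 falls as Igf1 rises (r = -0.60), and Igf1 rises with Ghr (r = 0.61), the latter with 2 air-dam females at the corners.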

How the data were processed

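Liver RNA of 24 rats was sequenced after polyA selection; integrity numbers exceeded 7, per the labels' protocols. Partek, STAR 2.6.1d, DESeq2 and build rn6 are listed, without role or order, in the submitters' processing notes. Annotation and strand setting: not given in the sources used here. For each sex the authors deposited a table of estimated counts, unscaled for depth or length (74.4% to 81.3% of values whole within 1e-09). Ghr had a fractional count in 20 of 24 libraries and Igf1 in 24 of 24, Igfbp2 and Bcl6 in 0. A further 23 columns could not be tied to a sample label and stayed out of every step.

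Counts were rounded, which changed totals by at most 0.00038%, filtered with filterByExpr (minimum count 10, minimum total 15), normalised by TMM and fitted with edgeR 4.0.16 in R 4.3.3 (robust quasi-likelihood), with library set as a term. Each sex was fitted by itself for the maternal difference, and all 24 libraries together for the interaction and the sex differences. A standard error is the log2 fold change divided by the root of the F statistic. CPM and log2 CPM (prior count 2) come from the fit of all libraries. Alternatives were DESeq2 1.42.0, RLE factors, no filter, omitting the set term, fits within either set, a joint fit for the maternal differences, and omission of single libraries.

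The members and gene lists were chosen with earlier results of these data known. The rule named the members in every comparison, and from 7 lists of the pathway and from the genes most like each member those with a symbol. As 0 of the 18056 IDs matched the reference table, those lists, the cell type markers and the likeness rule were not analysed here. Pairs of replicates differed beyond counting noise (chi-square per degree of freedom of 21.8 to 128 over 60 pairs).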

Additional observations from a re-analysis of the deposited data

Results flagged for a closer look

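Ghr: the maternal difference differed between the sexes by the test of the interaction, at 1.11 on the log2 scale (edgeR adjusted p = 0.000909). Over the 24 fits that left out 1 library each, it ran from 0.94 to 1.19 and was called in all of them.

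Bcl6 in male ozone replicate 3, at 20.9 CPM, lay far from the other 5 males of its group. Its gap to the nearest value, 8.38 CPM, was 0.722 of the whole range, above the 95% limit of 0.625 for 6 samples. The limit was applied to CPM and not to log2 CPM. In log2 CPM the value was 4.40, the next 3.09 and the lowest 1.90. On that scale the gap was below the limit of 0.625 of the range. The value came from 276 counts. Of the 16 sets of 6 values examined (4 members in 4 groups) this was the single one beyond the limit in CPM. Chance gives about 1 in 20. In the same library Ghr was at 457 CPM and Igf1 at 519 CPM, the lowest of its group.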

How the results depend on the processing

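The members' 20 log2 values gave 512 further values under the alternatives or with 1 library left out; 470 kept their direction and their side of the threshold, 20 lost a call, 1 gained one and 21 changed sign, all 21 for differences that were not called. The cause of these changes was not tested. No paired analysis was possible because the labels give no replicate numbers that animals of different groups share.

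With DESeq2, RLE factors, no filter and no library set term, the sex difference of Igf1 in air-dam offspring was 0.40, 0.40, 0.40 and 0.40, and in sets 1 and 2 alone 0.63 and 0.20, none of them called. Without single libraries it ran from 0.32 to 0.51. The called Ghr difference in males was 0.60 and not called in set 2 alone, and the Ghr interaction 0.98 and not called in set 1 alone; in set 1 alone, the Ghr sex difference in ozone-dam offspring was 0.082. For Igfbp2, set 1 alone gave 0.020 in males, -0.094 in females, 0.12 for the interaction and -2.79 for the sex difference in ozone-dam offspring, and set 2 alone gave -1.35, 0.40, -1.75 and -3.47. Bcl6 in males was 0.079 without the set term, -0.75 in set 1 alone, 0.42 in set 2 alone and 0.011 when both sexes were fitted jointly. Its interaction was -0.58 in set 1 and 0.48 in set 2 alone, and its sex difference in ozone-dam offspring -0.11 and 0.78. With 1 library left out, Bcl6 ran from -0.46 to 0.12 in males, from -0.21 to 0.011 in females and from -0.35 to 0.31 for the interaction, and Igfbp2 from -1.24 to -0.61 in males and from -0.10 to 0.46 in females.

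Over all genes, the count called in males was 861 in set 1 alone and 121 in set 2 alone, and 1684 to 3740 with 1 library left out (1684 without air replicate 5, 1758 without air replicate 4), against 2670. In females it was 336 with DESeq2, 66 without the set term, 9 in set 1, 0 in set 2, 1 when fitted jointly with males and 0 (without air replicate 6) to 135 with 1 library left out, against 34. The interaction gave 432 and 450 in sets 1 and 2 against 2994, and the sex differences 3404 (air-exposed dams, set 1), 71 and 412 (ozone-exposed dams, sets 1 and 2) against 6621 and 741. For Igfbp2 in males and Bcl6 in all groups, counting alone gives coefficients of variation of 10.8% to 22.5%, and the spread between animals was wider, at 22.4% to 75.5%.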
